A study of Mus musculus with 70 samples.

Results

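The genes described are 9 dual-specificity phosphatases that act on MAP kinases: Dusp1, Dusp2, Dusp4, Dusp5, Dusp6, Dusp8, Dusp10, Dusp14 and Dusp16. They were chosen by name from the 55011 genes of the deposited count table, with earlier results of these data known. A count of members or listed genes beside the share of all genes is therefore a description. Counts of the members were followed in all 70 libraries of mouse hindlimb muscle, which form 28 groups in 6 experiments. The experiments asked how muscle mesenchymal stromal cells (MmSCs, the fibroblast-like cells of muscle) and other muscle cells respond to injected cytokines and to injury. They also followed MmSCs of dystrophic mice over age. In 5 experiments 1000 cells per library were sorted in successive rounds of flow cytometry, and the other used RNA of whole muscle. Nothing in the labels ties each numbered library to an animal of its own, so p-values measure the spread between these libraries, which may in part be technical.

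In the first experiment MmSCs came from uninjured C57BL/6J mice injected intraperitoneally with cytokines. Mice were sampled 2 h after Il-1b, TNFa, Il-17A or oncostatin M (Osm) alone and after Osm with each of the other cytokines (2 libraries each). A mix of all 4 cytokines was sampled at 2 h (2 libraries), 4 h (1 library) and 8 h (2 libraries). Control mice received PBS (2 libraries), for which the labels give no time after injection, so that time and cytokine cannot be told apart in a comparison with PBS. In the second experiment CD31+ cells (an endothelial gate), CD45+ cells (a leukocyte gate), MmSCs and satellite cells (MuSCs, the stem cells of myofibres) were sorted from C57BL/6J mice 1 day after injury with cardiotoxin, a venom toxin that kills myofibres, and at rest (3 libraries each). From Il6RD mice, an Il6 reporter strain, MmSCs with Thy1.1 (Thy1.1+, 3 libraries) and without it (Thy1.1-, 3 libraries) were sorted 12 h after cardiotoxin. The whole tibialis anterior of C57BL/6J mice was sampled 7 days after cardiotoxin, with injections of antibody to Cxcl5 (3 libraries) or of IgG as control (3 libraries). MmSCs of dystrophin-deficient DMDmdx (mdx) mice were taken at 2.5 weeks (3 libraries), 7 weeks (3 libraries) and 12.5 weeks (2 libraries). The titles call this last age 12 weeks, and the 12.5 weeks of the source names is used here. MmSCs of Il1b-KO (3 libraries) and Il1b-WT (2 libraries) littermates were taken 1 day after cardiotoxin.

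MAP kinases (ERK, JNK and p38) are switched on when a kinase phosphorylates a threonine and a tyrosine of their activation loop, and these phosphatases switch them off by removing both phosphates. Dusp1, Dusp2, Dusp4 and Dusp5 encode nuclear enzymes that are known as inducible feedback genes, Dusp5 being directed at ERK. Dusp6 encodes a cytoplasmic, ERK-directed enzyme and is a widely used readout of ERK activity. Dusp8, Dusp10 and Dusp16 encode enzymes directed mainly at JNK and p38, the kinases that carry stress and inflammatory cytokine signals. Dusp14 encodes a small enzyme without the MAP kinase binding domain of the others.

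The promoters of Dusp1, Dusp8, Dusp10 and Dusp16 are shown first. These 4 genes were higher 2 h after the cytokine mix than in PBS mice and lower at 8 h than at 2 h of the mix. Dusp5 passed the same tests, and its window, printed further on, holds no TGANNTCA, so the letters are not shared by every gene of the pattern. The stretches are the 250 bases before each RefSeq start (GRCm38.p6), 5′ to 3′ on the strand of the gene. Capitals mark TGANNTCA, which includes the cyclic AMP response element TGACGTCA. TGANNTCA was chosen after the sequences had been read, and the 4 windows are shown because they hold it.
Dusp1: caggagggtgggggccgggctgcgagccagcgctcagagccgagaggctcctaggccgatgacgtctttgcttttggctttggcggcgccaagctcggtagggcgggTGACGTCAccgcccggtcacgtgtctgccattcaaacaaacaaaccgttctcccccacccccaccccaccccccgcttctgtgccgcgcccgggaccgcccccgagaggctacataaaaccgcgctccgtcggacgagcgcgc
Dusp8: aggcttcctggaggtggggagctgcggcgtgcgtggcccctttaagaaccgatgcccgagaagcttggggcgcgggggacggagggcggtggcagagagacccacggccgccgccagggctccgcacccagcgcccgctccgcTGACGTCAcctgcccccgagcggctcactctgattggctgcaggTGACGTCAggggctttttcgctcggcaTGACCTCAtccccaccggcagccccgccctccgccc
Dusp10: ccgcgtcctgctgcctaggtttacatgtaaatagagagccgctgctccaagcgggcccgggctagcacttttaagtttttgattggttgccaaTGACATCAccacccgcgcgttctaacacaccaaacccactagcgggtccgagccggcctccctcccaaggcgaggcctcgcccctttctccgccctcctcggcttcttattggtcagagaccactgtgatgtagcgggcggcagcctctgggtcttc
Dusp16: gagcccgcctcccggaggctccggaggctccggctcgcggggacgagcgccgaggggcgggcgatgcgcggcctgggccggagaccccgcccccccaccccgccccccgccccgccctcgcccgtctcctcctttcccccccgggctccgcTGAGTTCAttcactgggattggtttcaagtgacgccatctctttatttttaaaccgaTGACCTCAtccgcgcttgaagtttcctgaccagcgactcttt
The windows lie at chr17:26508473-26508722 (minus strand) for Dusp1, chr7:142095285-142095534 (minus strand) for Dusp8, chr1:184034131-184034380 (plus strand) for Dusp10 and chr6:134792629-134792878 (minus strand) for Dusp16. TGACGTCA itself was found 2 times in Dusp8, where the 2 copies begin 107 and 63 bases before the start, and 1 time in Dusp1, 143 bases before it. Dusp10 held TGANNTCA 1 time and Dusp16 held it 2 times. Dusp8 held it 3 times, its 2 copies of TGACGTCA included. Among all 32851 RefSeq promoter windows of this length, 1.55% held TGACGTCA and 11.9% held TGANNTCA on either strand.

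The Dusp5 promoter is shown because Dusp5 was higher after injury in each of the 4 sorted populations. Here capitals mark matches to the CArG box, the site known to bind serum response factor, and 2 such boxes stand end to end. The CArG box is marked because this window holds it, and the other members with a RefSeq window had no match.
Dusp5: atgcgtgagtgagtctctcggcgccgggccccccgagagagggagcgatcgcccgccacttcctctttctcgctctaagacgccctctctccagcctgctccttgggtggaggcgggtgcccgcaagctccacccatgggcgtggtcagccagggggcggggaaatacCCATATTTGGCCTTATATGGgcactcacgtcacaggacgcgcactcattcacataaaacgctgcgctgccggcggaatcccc
This window is chr19:53528895-53529144 (plus strand), and 1.47% of all windows held a CArG box. The AP-1 site TGANTCA (6.75% of all windows), the STAT site TTCNNNGAA (7.02%) and the NF-kB site (7.25%) were also searched on both strands in the 8 members with a RefSeq window. They had no match except 1 STAT match in Dusp14. A match is a description of these letters and not evidence of binding.

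Each sorted population carried its defining marker, and some also held signal of other cell types. Pecam1 was at 1898 to 2260 CPM (read counts scaled to library size, with TMM factors set within each experiment) in CD31+ libraries, Ptprc at 438 to 886 CPM in CD45+ libraries, Pdgfra at 537 to 751 CPM in MmSCs and Pax7 at 206 to 650 CPM in MuSCs. Pdgfra, the MmSC marker, was also at 0.304, 26.0 and 49.8 CPM in the injured MuSC libraries (lowest to highest) and at most 0.345 CPM in resting ones, and its part in the MuSC injury changes was not tested. Il1b, the deleted gene, was near the floor in injured MmSCs of both genotypes, with 0 to 1 count per library in Il1b-KO mice and 2 to 5 counts in Il1b-WT mice, so it checks those labels only weakly. Il6 was at 52.7 to 290 CPM in Thy1.1+ libraries and 22.0 to 67.2 CPM in Thy1.1- libraries. Replicate 3 of both groups of Il6RD mice stood apart from replicates 1 and 2: the chi-square per degree of freedom between libraries was 33.4 to 56.0 for pairs with it and at most 9.66 for pairs without it. Library totals ran from 2252373 to 8408842 counts.

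The members differed widely in abundance in MmSCs of PBS-injected mice and in resting MmSCs. Levels between genes are compared as mean CPM per kilobase of exon. In PBS MmSCs Dusp1 led with 105.6, followed by Dusp6 with 11.3 and Dusp14 with 10.8, a pair whose libraries overlapped. Dusp10 (3.19), Dusp16 (2.84) and Dusp8 (0.956) came next, with overlap between Dusp10 and Dusp16. Dusp5 was at 0.261 per kilobase, Dusp2 at 0.0317 and Dusp4 at 0. Resting MmSCs of the injury experiment had the same gene on top (Dusp1, 222.6 per kilobase), then Dusp14 (22.5) and Dusp6 (18.0), whose libraries again overlapped.

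The number of members called in MmSCs ran from 0 to 5 of 7 over the cytokine injections. The share of all genes called also varied over them, from 4.95% to 41.9%. Dusp2 and Dusp4 had at most 5 counts in any library of this experiment and did not pass the filter on low counts, which left 7 members. A gene was called when edgeR's adjusted p over all genes tested was under 0.05, and each count is given beside the share of all tested genes called in either direction. The mix moved 5 of 7 members at 2 h (38.5% of all genes), all upward, with a median log2 change of 1.56 against -0.06 over all genes. At 4 h 2 of 7 were called, both upward, near the 36.4% of all genes. At 8 h 5 of 7 were called (28.4% of all genes), 1 higher and 4 lower, with a median of -0.72 against 0.07. Between 8 h and 2 h of the mix itself, 6 of 7 were lower at 8 h (35.3% of all genes).

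Among single cytokines, Il-1b moved 4 of 7 members (33.1% of all genes), Osm 4 of 7 (34.3%) and Il-17A 1 of 7 (4.95%). For TNFa edgeR called 0 of 7 against 14.8% of all genes. Of the 15965 genes tested for TNFa, 4353 had an unadjusted p under 0.05, and DESeq2 called 1 member, Dusp8. Osm with Il-1b moved 5 of 7 (41.9% of all genes), Osm with TNFa 3 of 7 (37%) and Osm with Il-17A 3 of 7 (35.6%). These comparisons share the same 2 PBS libraries. Direct comparisons between cytokines called 3 of 7 members for Il-1b against Osm (9.65% of all genes), 1 of 7 for Il-1b against TNFa (10.3%), 4 of 7 for Osm with Il-1b against Osm alone (13%), and 1 of 7 for Osm with Il-1b against Il-1b alone (7.03%). The count for Il-1b against TNFa is near the share of all genes. Whether the effects of Osm and Il-1b add up was tested as an interaction, which was called for 2 of 7 members (15.8% of all genes).

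Dusp1 (chr17:26505590-26562128), the prototype of the family and an immediate-early gene, was the most abundant member. Its locus overlaps AC122252.1 and AC122252.4 on the same strand and Ergic1 and Gm8225 on the other, and how shared reads were counted is not given in the sources used here. It had 433 and 266 CPM in PBS mice, 1568 and 1783 CPM 2 h after the mix, 950.4 CPM at 4 h and 678 and 862 CPM at 8 h. All 5 mix libraries were above both PBS libraries, and the level fell with time after its 2 h value. The log2 change was 2.26 ± 0.28 (SE) at 2 h (adjusted p = 1.31e-06), 1.44 ± 0.31 at 4 h (adjusted p = 0.000996) and 1.14 ± 0.27 at 8 h (adjusted p = 0.00262). The 4 h group is 1 library whose spread is assumed to equal that of the other groups.

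No single cytokine raised Dusp1 beyond the spread of the libraries. It had 409 and 243 CPM after Il-1b, 354 and 254 CPM after TNFa, 417 and 363 CPM after Osm and 456 and 257 CPM after Il-17A, ranges that overlap the PBS libraries. Log2 changes lay between -0.20 (TNFa) and 0.16 (Osm). Each pair that included Osm was different. Dusp1 had 909 and 940 CPM after Osm with Il-1b, 639 and 872 CPM after Osm with TNFa, and 729 and 614 CPM after Osm with Il-17A. All 6 libraries of the pairs were above both PBS libraries, with log2 changes of 1.40 ± 0.27 (adjusted p = 0.000255), 1.11 ± 0.27 (adjusted p = 0.00253) and 0.94 ± 0.27 (adjusted p = 0.00881) in that order. Against the single cytokines, Osm with Il-1b was higher than Osm by 1.25 ± 0.27 (adjusted p = 0.00335) and higher than Il-1b by 1.50 ± 0.27 (adjusted p = 0.00121). The interaction of Osm and Il-1b was 1.34 ± 0.38 on the log2 scale (adjusted p = 0.0185), an excess over the sum of both single changes.

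PBS replicate 2 was the lower of the PBS libraries for Dusp1, and several calls needed it. Without it the log2 change was 0.82 (adjusted p = 0.0763) for the mix at 8 h, 0.78 (adjusted p = 0.0755) for Osm with TNFa and 0.61 (adjusted p = 0.169) for Osm with Il-17A. The last was also lost without replicate 1 of Osm with Il-17A (0.80, adjusted p = 0.0839), and the difference from Osm alone was lost without Osm replicate 2 (1.15, adjusted p = 0.0533). The interaction passed in 4 of 8 fits that left out 1 library. It was lost without PBS replicate 1 (0.98, adjusted p = 0.12), Il-1b replicate 2 (1.02, adjusted p = 0.0815), Osm replicate 2 (1.29, adjusted p = 0.0672) or replicate 2 of Osm with Il-1b (1.32, adjusted p = 0.0545). The calls for the mix at 2 h and 4 h, and for Osm with Il-1b against PBS and against Il-1b, held in each of these fits.

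**Figure D1:**
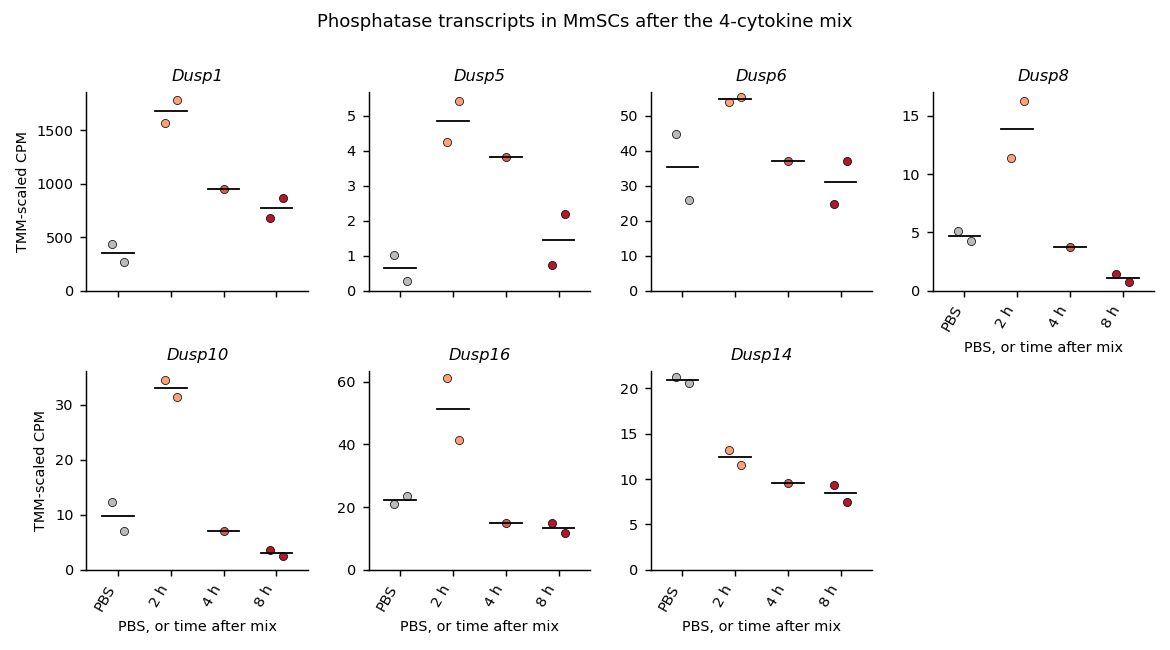
TMM-scaled CPM of the 7 tested members in MmSCs of mice given PBS and 2, 4 and 8 h after the 4-cytokine mix, 1 point per library with the group mean as a bar, on a linear axis from 0 that differs between genes. Dusp1, Dusp5, Dusp6, Dusp8, Dusp10 and Dusp16 are highest at 2 h, where their libraries lie above both PBS libraries. Dusp8, Dusp10, Dusp14 and Dusp16 lie below both PBS libraries at 4 and 8 h, Dusp10 only just at 4 h (7.05 against 7.09 CPM). None of these was called against PBS at 4 h.

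Dusp5 (chr19:53529109-53542431), the nuclear phosphatase directed at ERK, was scarce and had its highest level after Osm alone. It had 8.91 and 7.58 CPM after Osm, against 1.02 and 0.273 CPM in PBS mice (62 and 54 counts against 8 and 2), a log2 change of 3.62 ± 0.66 (adjusted p = 0.000198). After the mix it had 4.25 and 5.43 CPM at 2 h, 3.82 CPM at 4 h and 0.719 and 2.20 CPM at 8 h. The change against PBS was 2.85 ± 0.67 at 2 h (adjusted p = 0.00176) and 2.52 ± 0.75 at 4 h (adjusted p = 0.012), and at 8 h it did not pass the test (1.11 ± 0.71, adjusted p = 0.276).

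After Il-1b Dusp5 was at 3.89 and 2.03 CPM (2.15 ± 0.69 against PBS, adjusted p = 0.0197), while TNFa and Il-17A gave 0.529 and 0.283 CPM and 0.157 and 0.543 CPM, within the range of PBS apart from 1 Il-17A library below it. Il-1b was higher than TNFa by 2.80 ± 0.74 (adjusted p = 0.0179). Adding Il-1b to Osm gave 3.39 and 1.43 CPM, below both libraries of Osm alone, although that difference narrowly missed the threshold (-1.78 ± 0.59, adjusted p = 0.0542). The interaction was -3.92 ± 0.91 (adjusted p = 0.00504), and it kept its call in each of the 8 fits that left out 1 library, between -5.10 and -3.27. Against PBS, Dusp5 was higher after Osm with Il-1b (1.84 ± 0.71, adjusted p = 0.043), Osm with TNFa (3.32 and 3.28 CPM, 2.31 ± 0.68, adjusted p = 0.0112) and Osm with Il-17A (5.46 and 5.26 CPM, 3.00 ± 0.66, adjusted p = 0.00125). Dusp1 and Dusp5 thus had interactions of opposite sign in the same 8 libraries.

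Calls for Dusp5 rest on few counts. Without PBS replicate 2, which had 2 counts, the change was 1.85 (adjusted p = 0.111) for the mix at 4 h, 1.49 (adjusted p = 0.188) for Il-1b, 1.19 (adjusted p = 0.276) for Osm with Il-1b and 1.65 (adjusted p = 0.129) for Osm with TNFa. It was also lost for Il-1b without Il-1b replicate 1 (1.61, adjusted p = 0.171) and for Osm with Il-1b without replicate 1 of that pair (1.11, adjusted p = 0.371), and under DESeq2 for that pair (1.87, adjusted p = 0.056). Il-1b against TNFa was lost without Il-1b replicate 1 (2.26, adjusted p = 0.151) or TNFa replicate 1 (3.29, adjusted p = 0.0744) or 2 (2.41, adjusted p = 0.15). The calls for the mix at 2 h, Osm and Osm with Il-17A held in each such fit.

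Dusp6 (chr10:99263231-99267489), the cytoplasmic ERK phosphatase, was higher after Osm and after each pair with Osm, but was not called after the mix, which also contains Osm. It had 64.6 and 95.8 CPM after Osm, 79.8 and 91.2 CPM after Osm with Il-1b, 79.1 and 73.4 CPM after Osm with TNFa and 81.7 and 91.9 CPM after Osm with Il-17A, against 44.8 and 25.9 CPM in PBS mice. All 8 of these libraries were above both PBS libraries. The log2 changes were 1.18 ± 0.26 (adjusted p = 0.00129), 1.27 ± 0.26 (adjusted p = 0.00052), 1.11 ± 0.26 (adjusted p = 0.00216) and 1.29 ± 0.26 (adjusted p = 0.00054) in that order. The call for Osm with TNFa was lost without PBS replicate 2 (0.74, adjusted p = 0.0677), and the other 3 held without any 1 library.

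Among the other single cytokines, Dusp6 passed the test for Il-1b. It had 49.1 and 65.1 CPM after Il-1b (0.69 ± 0.26, adjusted p = 0.0491), 55.4 and 54.0 CPM after TNFa (0.63 ± 0.26, adjusted p = 0.121) and 35.6 and 61.2 CPM after Il-17A (0.45 ± 0.26, adjusted p = 0.375). The call for Il-1b was lost under DESeq2 (0.64, adjusted p = 0.055), and without PBS replicate 2 (0.31, adjusted p = 0.484) or Il-1b replicate 2 (0.47, adjusted p = 0.285). After the mix of all 4, Osm included, the gene had 54.0 and 55.4 CPM at 2 h, a change of 0.63 ± 0.26 that did not pass (adjusted p = 0.0656), 36.9 CPM at 4 h, and 24.8 and 37.1 CPM at 8 h. Adding Il-1b to Osm left Dusp6 0.09 ± 0.25 from its level with Osm alone (adjusted p = 0.869).

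Dusp8, Dusp10 and Dusp16, the JNK- and p38-directed members, moved together after the mix. Dusp10 (chr1:184013302-184075636) had 12.3 and 7.09 CPM in PBS mice, 34.6 and 31.4 CPM at 2 h, 7.05 CPM at 4 h and 3.60 and 2.49 CPM at 8 h. It was higher at 2 h by 1.76 ± 0.37 (adjusted p = 0.000633) and lower at 8 h, at -1.66 ± 0.42 (adjusted p = 0.00473). Dusp16 (chr6:134715468-134792625) had 20.9 and 23.5 CPM in PBS mice, 61.0 and 41.3 CPM at 2 h, 14.9 CPM at 4 h and 15.0 and 11.7 CPM at 8 h, with changes of 1.21 ± 0.25 (adjusted p = 0.000504) at 2 h and -0.72 ± 0.26 (adjusted p = 0.0396) at 8 h. Dusp8 (chr7:142079490-142095843) had 5.09 and 4.23 CPM in PBS mice, 11.4 and 16.3 CPM at 2 h, 3.70 CPM at 4 h and 1.44 and 0.734 CPM at 8 h, with changes of 1.56 ± 0.50 (adjusted p = 0.0176) and -2.05 ± 0.63 (adjusted p = 0.017). For all 3 genes the 2 h libraries were above, and the 8 h libraries below, both PBS libraries.

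Set directly against each other, the 8 h and 2 h libraries of the mix also differed in these 3 genes, and the PBS libraries do not enter that contrast. At 8 h Dusp8 was lower than at 2 h by -3.61 ± 0.60 (adjusted p = 7.04e-05), Dusp10 by -3.42 ± 0.41 (adjusted p = 1.6e-06) and Dusp16 by -1.93 ± 0.25 (adjusted p = 4.99e-06), and these calls held without any 1 library. Dusp1 (-1.12 ± 0.27, adjusted p = 0.00236), Dusp5 (-1.75 ± 0.61, adjusted p = 0.0308) and Dusp6 (-0.83 ± 0.27, adjusted p = 0.0195) were also lower at 8 h. All 3 lost the call without 8 h replicate 1, at -0.95 (adjusted p = 0.0503), -1.12 (adjusted p = 0.266) and -0.55 (adjusted p = 0.228). Dusp5 and Dusp6 also lost it without 2 h replicate 1 (-1.91, adjusted p = 0.0563, and -0.84, adjusted p = 0.062) or 2 (-1.56, adjusted p = 0.124, and -0.81, adjusted p = 0.0703).

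The 2 h calls against PBS for Dusp10 and Dusp16 held without any 1 library, and those at 8 h did not. At 8 h Dusp10 lost its call without 8 h replicate 2 (-1.43, adjusted p = 0.0606) or PBS replicate 1 (-1.21, adjusted p = 0.0911). Dusp16 lost it in all 4 such fits, which gave -0.92 to -0.56, adjusted p 0.0555 without 8 h replicate 1, 0.239 without 8 h replicate 2, 0.0725 without PBS replicate 1 and 0.17 without PBS replicate 2. Dusp8 lost its 2 h call without 2 h replicate 2 (1.28, adjusted p = 0.114), PBS replicate 1 (1.68, adjusted p = 0.0626) or PBS replicate 2 (1.42, adjusted p = 0.11), and its 8 h call without 8 h replicate 2 (-1.68, adjusted p = 0.134) or PBS replicate 1 (-1.92, adjusted p = 0.0766).

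Il-1b and Osm differed from each other for these 3 genes. Dusp8 had 10.1 and 18.8 CPM after Il-1b and 2.30 and 0.562 CPM after Osm, a log2 difference of 3.33 ± 0.58 (adjusted p = 0.000445) that held without any 1 library. Dusp10 had 15.0 and 18.6 CPM after Il-1b and 6.32 and 4.77 CPM after Osm (1.60 ± 0.39, adjusted p = 0.00955). Dusp16 had 29.2 and 31.7 CPM after Il-1b and 15.2 and 10.7 CPM after Osm (1.23 ± 0.26, adjusted p = 0.00262). Both Il-1b libraries lay above both Osm libraries for each gene. Without Osm replicate 2, Dusp10 (1.40, adjusted p = 0.124) and Dusp16 (0.98, adjusted p = 0.0737) lost the call, and Dusp10 also without Il-1b replicate 2 (1.44, adjusted p = 0.0799). No other member was called in this contrast.

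Adding Il-1b to Osm gave 7.01 and 12.5 CPM of Dusp8, 21.7 and 22.3 CPM of Dusp10 and 24.9 and 22.3 CPM of Dusp16, all above the libraries of Osm alone. The differences from Osm were 2.76 ± 0.60 (adjusted p = 0.00344), 1.98 ± 0.39 (adjusted p = 0.00159) and 0.86 ± 0.26 (adjusted p = 0.0353). That of Dusp10 held without any 1 library. Dusp8 lost the call without Osm replicate 2 (2.09, adjusted p = 0.0678) or replicate 2 of the pair (2.28, adjusted p = 0.0569). Dusp16 lost it without Osm replicate 2 (0.63, adjusted p = 0.264) or replicate 1 (0.78, adjusted p = 0.15) or 2 (0.94, adjusted p = 0.0849) of the pair. The interaction terms of these 3 genes did not pass the test (0.41 to 1.20, adjusted p 0.147 to 0.51).

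Against PBS, Dusp8 was the only member called after Il-17A, with 28.8 and 15.4 CPM against 5.09 and 4.23 CPM (2.25 ± 0.50, adjusted p = 0.0143). It was higher after Il-1b (1.63 ± 0.50, adjusted p = 0.0161), lower after Osm (-1.70 ± 0.61, adjusted p = 0.0361), and at 8.32 and 17.6 CPM after TNFa (1.47 ± 0.50, adjusted p = 0.0543). All 3 calls needed particular libraries. The Il-17A call was lost without PBS replicate 1 (2.39, adjusted p = 0.0937), PBS replicate 2 (2.12, adjusted p = 0.125) or Il-17A replicate 1 (1.72, adjusted p = 0.138). The Il-1b call was lost without PBS replicate 1 (1.73, adjusted p = 0.0659), PBS replicate 2 (1.46, adjusted p = 0.113) or Il-1b replicate 2 (1.11, adjusted p = 0.176), and the Osm call without PBS replicate 1 (-1.57, adjusted p = 0.125), PBS replicate 2 (-1.84, adjusted p = 0.0648) or Osm replicate 2 (-1.04, adjusted p = 0.284).

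Dusp10 was higher than in PBS mice after Osm with Il-1b (1.17 ± 0.37, adjusted p = 0.0149), a call lost without PBS replicate 2 (0.81, adjusted p = 0.175) or replicate 2 of the pair (1.15, adjusted p = 0.0568). Dusp16 was lower after Osm (-0.77 ± 0.26, adjusted p = 0.0247), a call lost without PBS replicate 2 (-0.71, adjusted p = 0.112) or Osm replicate 2 (-0.56, adjusted p = 0.2). After TNFa Dusp16 had 28.0 and 44.9 CPM against 20.9 and 23.5 CPM, just short of the threshold (0.72 ± 0.25, adjusted p = 0.0553).

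**Figure D2:**
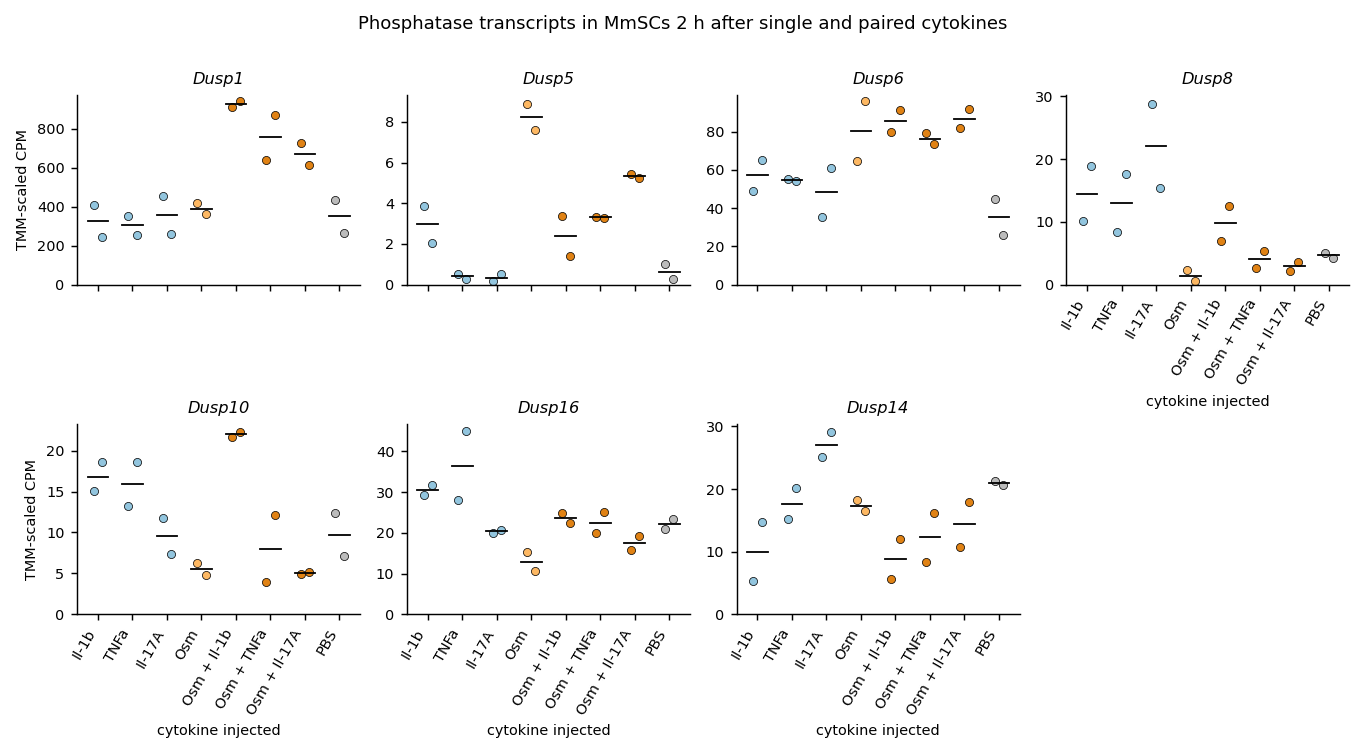
TMM-scaled CPM of the 7 tested members in MmSCs 2 h after Il-1b, TNFa, Il-17A or Osm alone, after Osm with each of the others, and after PBS, with 1 point per library, the group mean as a bar and linear axes from 0 that differ between genes. Dusp1 is above PBS in the 6 libraries of the Osm pairs and in none of the single-cytokine groups as a whole, Dusp5 is highest after Osm alone, and Dusp8 and Dusp16 are lowest after Osm alone.

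Dusp14 (chr11:84048041-84069261) was the only member whose called changes against PBS were all downward. It had 9.35 and 7.48 CPM 8 h after the mix, 5.30 and 14.7 CPM after Il-1b and 5.65 and 12.1 CPM after Osm with Il-1b, against 21.2 and 20.6 CPM in PBS mice. All 6 libraries were below both PBS libraries, with changes of -1.31 ± 0.39 (adjusted p = 0.015), -1.06 ± 0.39 (adjusted p = 0.0438) and -1.23 ± 0.40 (adjusted p = 0.0187). At 2 h the mix gave 13.2 and 11.5 CPM, which did not pass (-0.76 ± 0.38, adjusted p = 0.13).

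Each of the 3 calls for Dusp14 was lost when PBS replicate 1 or 2 was left out. Those fits gave -1.29 (adjusted p = 0.0591) and -1.34 (adjusted p = 0.0511) for the mix at 8 h, -1.07 (adjusted p = 0.11) and -1.12 (adjusted p = 0.0954) for Il-1b, and -1.22 (adjusted p = 0.0592) and -1.27 (adjusted p = 0.05) for Osm with Il-1b. Without the lower treated library the change shrank to -0.50 for Il-1b (without replicate 1, adjusted p = 0.396) and -0.79 for Osm with Il-1b (without replicate 1, adjusted p = 0.209). The 8 h call was lost as well without 8 h replicate 1 (-1.49, adjusted p = 0.0509) or 2 (-1.16, adjusted p = 0.114).

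Other signals moved in the same MmSC libraries. The summed level of 19 genes known to rise during tissue dissociation was 6854 to 8770 CPM 2 h after the mix, 3280 to 3427 CPM at 8 h, 6480 to 7919 CPM after Osm, 4113 to 4131 CPM after Il-1b and 1473 to 1992 CPM in PBS mice, and all 19 were detected in each of these groups. The summed level of 8 satellite cell markers was 582 to 626 CPM after Il-1b and 42.8 to 52.8 CPM in PBS mice. Of that sum Vcam1 alone, which stromal cells can also express, gave 582 to 626 CPM after Il-1b and 42.5 to 52.4 CPM in PBS mice. The other 7 markers summed to at most 0.707 and 0.409 CPM, with Pax7, Myf5, Myod1 and Chrdl2 at 0 after Il-1b. The part of the dissociation genes in the changes of the phosphatases was not tested.

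Other genes of the MAP kinase pathway are counted here beside the 38.5% of all genes called at 2 h of the mix. At 2 h of the mix 7 of 14 AP-1 and ATF genes were higher and 0 lower, with a median of 1.59, among them Fosl2 (3.18 ± 0.15) and Junb (3.07 ± 0.20), which encode AP-1 subunits. Of 13 ERK pathway feedback inhibitors 5 were higher and 3 lower, with Spred1 (2.39 ± 0.17) and Errfi1 (3.22 ± 0.26) among the higher. Of 17 MAP3 kinases 2 were higher and 4 lower, and Map3k8, a kinase that carries Il-1b and TNFa signals to ERK, rose by 3.71 ± 0.19. Of 10 MAP kinases 1 was higher (Mapk6, 2.52 ± 0.19) and 6 lower, among them the p38 alpha gene Mapk14 (-2.70 ± 0.34). Of 15 other dual-specificity phosphatases 2 were higher and 5 lower, with a median of -0.41. The shares called among MAP3 kinases and other phosphatases are near that of all genes.

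In Osm mice, where 34.3% of all genes were called, 5 of 13 feedback inhibitors were higher and 1 was lower. Of 16 ERK-responsive genes 5 were higher and 1 was lower, a share near that of all genes. Egr1 (1.81 ± 0.28) and Egr2 (2.79 ± 0.29), transcription factor genes induced by ERK, were among the higher. Among these lists Map3k8 was higher after Osm with Il-1b than after Osm alone by 1.72 ± 0.17 and Egr2 was lower by -1.21 ± 0.27.

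Likeness over the 21 libraries of this experiment is given as a description, since the libraries share treatments. On log2(CPM + 1) Pearson's r was 0.85 between Dusp10 and Dusp16, 0.79 between Dusp8 and Dusp10 and 0.74 between Dusp8 and Dusp16, while Dusp5 and Dusp8 had -0.43 and Dusp1 and Dusp14 had -0.50. Dusp10 was the gene most like Dusp16 among the genes searched. The genes most like Dusp1 were Dnajb1 (0.90), a heat shock gene, Mafk (0.87) and Smg1 (0.86). Those most like Dusp10 were Plat (0.89) and Plau (0.87), which encode plasminogen activators, and Tnfaip8 (0.89). Those most like Dusp6 were Casp1, Arl1 and Med7 (0.88 to 0.89), and those most like Dusp8 were Ndrg1 (0.86), Bmp2 (0.84) and Abtb2 (0.82).

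Injury was examined in 4 sorted populations, in which all 9 members passed the filter. One day after cardiotoxin 4 of 9 members were called in CD31+ cells (23.5% of all genes), 4 of 9 in CD45+ cells (34.6%), 4 of 9 in MmSCs (41.8%) and 5 of 9 in MuSCs (38.8%). The count in MmSCs is near the share of all genes. At rest 6 of 9 differed between MmSCs and CD31+ cells (47% of all genes) and 7 of 9 between MmSCs and CD45+ cells (56.7%). Between resting MmSCs and MuSCs edgeR called 0 of 9 against 40.7% of all genes. In that contrast 7753 of 16374 genes had an unadjusted p under 0.05, and DESeq2 called 2 members, Dusp2 and Dusp10. The response of MmSCs to injury was set against that of each other population as an interaction. It was called for 2 of 9 members against CD31+ cells (12.5% of all genes) and 2 of 9 against MuSCs (7.64%). Against CD45+ cells it was called for 2 of 9, near the 25% of all genes.

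Dusp5 was the one member called in all 4 populations, each time upward. It had 6.12, 10.1 and 6.46 CPM in injured CD31+ cells, against 0, 1.15 and 0.300 CPM at rest. In CD45+ cells it had 60.4, 89.3 and 47.0 CPM after injury, against 20.5, 11.4 and 23.0 CPM at rest. In MmSCs it had 5.84, 2.37 and 3.12 CPM after injury, against 1.54, 0.914 and 0.452 CPM at rest, and in MuSCs 32.1, 26.2 and 26.4 CPM, against 0.787, 1.38 and 1.40 CPM. In each population all injured libraries were above all resting ones. The log2 changes were 4.01 ± 0.62 (adjusted p = 4.05e-05) in CD31+ cells, 1.84 ± 0.35 (adjusted p = 0.000317) in CD45+ cells, 1.90 ± 0.53 (adjusted p = 0.00617) in MmSCs and 4.57 ± 0.48 (adjusted p = 9.18e-08) in MuSCs. The MmSC call was lost without injured replicate 1 (1.43, adjusted p = 0.0639), and the others held without any 1 library.

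The rise of Dusp5 was smaller in MmSCs than in MuSCs in the interaction test (-2.67 ± 0.80, adjusted p = 0.0406). That call was lost in 11 of 12 fits without 1 library, each library but MmSC injured replicate 1, over which the value ran from -3.16 to -1.83, and also with the replicate number as a block (-2.66, adjusted p = 0.055). Against CD31+ cells (-2.11 ± 0.93, adjusted p = 0.15) and CD45+ cells (0.06 ± 0.48, adjusted p = 0.987) the interaction did not pass. At rest Dusp5 was lower in MmSCs than in CD45+ cells (-4.15 ± 0.49, adjusted p = 1.6e-07), and no resting library of either population overlapped the other.

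Dusp1 went opposite ways in leukocytes and in stromal and satellite cells. It had 6915, 8579 and 5572 CPM in injured CD45+ cells, against 1610, 805 and 2505 CPM at rest, a change of 2.10 ± 0.37 (adjusted p = 0.000118). In MmSCs it had 266, 403 and 298 CPM after injury, against 718, 539 and 953 CPM at rest (-1.19 ± 0.36, adjusted p = 0.0101), and in MuSCs 139, 285 and 190 CPM, against 840, 646 and 657 CPM (-1.80 ± 0.37, adjusted p = 0.0004). The groups did not overlap in any of the 3 populations. In CD31+ cells, with 658, 928 and 676 CPM against 1053, 675 and 1872 CPM, they did (-0.67 ± 0.35, adjusted p = 0.185).

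The difference between the MmSC and CD45+ responses of Dusp1 was -3.29 ± 0.51 (adjusted p = 4.48e-05), and it held in each of 12 fits without 1 library. The MmSC call itself was lost without resting replicate 3 (-0.81, adjusted p = 0.109) or injured replicate 1 (-1.06, adjusted p = 0.0545). Changes in MmSCs are to be read beside a median of -0.22 over all genes in that comparison. At rest Dusp1 was lower in MmSCs than in CD45+ cells by -1.15 ± 0.36 (adjusted p = 0.00854), with overlapping libraries, and without CD45+ resting replicate 3 it did not pass (-0.71, adjusted p = 0.103).

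Markers of cell identity and stress moved with Dusp1 in the CD45+ gate. The 8 neutrophil markers summed to 7610 to 11613 CPM in injured CD45+ libraries and 1205 to 3964 CPM at rest, and the 8 lymphocyte markers to 35.9 to 77.2 CPM and 567 to 2274 CPM. The 19 dissociation genes summed to 18750 to 26434 CPM after injury and 4958 to 7931 CPM at rest, with 15 higher and 2 lower. In MmSCs that sum was 5282 to 5726 CPM after injury and 3262 to 4478 CPM at rest, opposite in direction to Dusp1. Other marker sums were lower in injured MmSCs, where Dusp1, Dusp8 and Dusp16 were also lower. The 10 MmSC markers summed to 18979 to 24208 CPM after injury and 59799 to 83089 CPM at rest (0 higher, 6 lower). The 8 Schwann cell markers summed to 628 to 641 CPM after injury and 1619 to 1792 CPM at rest, with Sox10 at 0 in both, and the 8 myofibre markers to 1.85 to 11.5 CPM and 135 to 384 CPM. The part of cell composition and of dissociation genes in these changes was not tested. In CD45+ cells, where 34.6% of all genes were called, 10 of 17 ERK-responsive genes were higher and 3 lower, with Egr1 (2.79 ± 0.38), Fos (1.83 ± 0.27) and Ier3 (5.17 ± 0.36) among the higher. Of 14 AP-1 and ATF genes 9 were higher and 1 lower there, with Jun (1.62 ± 0.16) among the higher. In MmSCs, where 41.8% were called, 7 of 17 ERK-responsive genes were higher and 2 lower, and 2 of 14 AP-1 and ATF genes were higher and 7 lower, with Jun (-0.79 ± 0.16) and Jund (-2.10 ± 0.40) among the lower.

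Dusp2 (chr2:127336159-127338376), a nuclear phosphatase best known from activated leukocytes, was most abundant in CD45+ cells. It had 76.2, 51.6 and 121 CPM in resting CD45+ cells, against 1 count in the 3 resting MmSC libraries together. The MmSC to CD45+ ratio was 0.000826, with a 95% exact counting interval of 2.09e-05 to 0.00461 (adjusted p = 2.6e-09). Against CD31+ cells at rest (1.73, 2.87 and 2.70 CPM, 27 counts) the ratio was 0.0290, with an interval of 0.000709 to 0.176 (adjusted p = 0.00763). These intervals cover counting error only.

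After injury Dusp2 was higher in CD31+ cells, with 10.7, 14.4 and 6.78 CPM against 1.73, 2.87 and 2.70 CPM (2.14 ± 0.61, adjusted p = 0.0129), and in MuSCs, with 6.39, 4.91 and 3.05 CPM against 0.787, 0.689 and 0.798 CPM (2.59 ± 0.78, adjusted p = 0.0112). In CD45+ cells the injured libraries had 122, 148 and 21.9 CPM and spanned the resting ones (0.23 ± 0.42, adjusted p = 0.721). The CD31+ call was lost without resting replicate 1 (1.92, adjusted p = 0.0695) or injured replicate 2 (1.88, adjusted p = 0.0526), and the MuSC call held. The 8 leukocyte markers summed to 10.3 to 151 CPM in injured CD31+ cells and 4.32 to 10.9 CPM at rest, and to 1.80 to 4.41 CPM in injured MuSCs and 1.18 to 2.76 CPM at rest. Their part in the change of Dusp2 was not tested.

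Dusp4 (chr8:34807297-34819894), a nuclear phosphatase of ERK and JNK, was scarce in these cells and near the floor in MmSCs. It had 0 counts in all 3 injured MmSC libraries and 7 counts in 1 of 3 resting ones. Its highest group mean was in injured MuSCs, with 5.93, 4.26 and 3.58 CPM, against 4.33, 0.345 and 0.599 CPM at rest (1.30 ± 0.95, adjusted p = 0.304). No injury comparison called it.

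Dusp6 was lower in MmSCs than in endothelial cells and leukocytes. It had 55.6, 61.2 and 52.6 CPM in resting MmSCs, against 181, 181 and 447 CPM in CD31+ cells and 323, 227 and 229 CPM in CD45+ cells, with no overlap (-2.25 ± 0.30, adjusted p = 1.15e-06, and -2.20 ± 0.29, adjusted p = 1.17e-06). The one injury call for Dusp6 was in CD45+ cells, with 451, 406 and 477 CPM against 323, 227 and 229 CPM (0.77 ± 0.28, adjusted p = 0.0345). This call was lost without resting replicate 2 (0.74, adjusted p = 0.087) or 3 (0.69, adjusted p = 0.109) or injured replicate 1 (0.81, adjusted p = 0.0514) or 3 (0.77, adjusted p = 0.0619). In MuSCs the injured libraries (105, 61.4 and 73.2 CPM) also lay above the resting ones (55.7, 54.4 and 36.5 CPM), short of the threshold (0.71 ± 0.29, adjusted p = 0.0584). In MmSCs the change was -0.12 ± 0.29 (adjusted p = 0.775).

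Dusp8 went up in CD31+ cells and down in MmSCs and MuSCs. It had 50.4, 65.3 and 35.5 CPM in injured CD31+ cells, against 6.49, 6.89 and 1.50 CPM at rest (3.31 ± 0.48, adjusted p = 1.99e-05). In MmSCs it had 2.42, 2.54 and 3.31 CPM after injury, against 17.2, 8.68 and 11.1 CPM (-2.17 ± 0.50, adjusted p = 0.00117), and in MuSCs 2.13, 4.42 and 6.89 CPM, against 17.1, 14.8 and 18.8 CPM (-1.90 ± 0.47, adjusted p = 0.00234). The groups did not overlap in these populations, and the calls held without any 1 library. The MmSC response differed from the CD31+ response by -5.48 ± 0.69 (adjusted p = 1.3e-05), between -5.75 and -4.99 over 12 fits without 1 library. In CD45+ cells the gene was at 0, 1.75 and 0.238 CPM after injury and 1.69, 2.35 and 3.20 CPM at rest (-1.81 ± 0.79, adjusted p = 0.0817).

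Resting Dusp8 was higher in MmSCs than in CD45+ cells (2.37 ± 0.54, adjusted p = 0.000708) and than in CD31+ cells (1.30 ± 0.49, adjusted p = 0.0321). The call against CD31+ cells was lost without CD31+ resting replicate 3 (0.90, adjusted p = 0.146) or MmSC resting replicate 1 (0.84, adjusted p = 0.225) or 3 (1.26, adjusted p = 0.0641).

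Dusp10 went up in MuSCs and down in CD45+ cells. It had 62.5, 79.4 and 64.4 CPM in injured MuSCs, against 9.64, 14.5 and 13.2 CPM at rest, a change of 2.48 ± 0.27 (adjusted p = 1.4e-07). In CD45+ cells it was lower after injury, with 2.58, 5.73 and 5.23 CPM against 12.3, 10.9 and 16.9 CPM (-1.55 ± 0.31, adjusted p = 0.000423). In MmSCs it had 17.4, 22.5 and 22.8 CPM after injury, against 19.3, 21.7 and 17.6 CPM at rest, a change of 0.09 ± 0.26 (adjusted p = 0.81). The MmSC response was below that of MuSCs by -2.38 ± 0.37 (adjusted p = 0.000209) and above that of CD45+ cells by 1.65 ± 0.40 (adjusted p = 0.00356). All 4 of these calls held without any 1 library. At rest Dusp10 was higher in MmSCs than in CD31+ cells (3.89, 2.01 and 5.69 CPM) by 2.34 ± 0.31 (adjusted p = 1.2e-06).

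Dusp16 had 19.6, 21.8 and 16.0 CPM in injured CD31+ cells, against 17.1, 7.46 and 6.89 CPM at rest, and 9.26, 8.98 and 12.1 CPM in injured MmSCs, against 14.5, 18.7 and 21.2 CPM at rest. The CD31+ libraries overlapped and the MmSC libraries did not, with changes of 0.84 ± 0.28 (adjusted p = 0.035) and -0.84 ± 0.28 (adjusted p = 0.0188). The difference between both responses was -1.68 ± 0.40 (adjusted p = 0.00684) and held in each of 12 fits without 1 library, between -2.11 and -1.39. Each separate call was lost in 4 of 6 such fits. For CD31+ cells these were the fits without resting replicate 2 (0.65, adjusted p = 0.152) or 3 (0.62, adjusted p = 0.161) or injured replicate 1 (0.83, adjusted p = 0.0829) or 2 (0.75, adjusted p = 0.112). DESeq2 also did not call it (0.72, adjusted p = 0.0621). For MmSCs they were those without resting replicate 2 (-0.66, adjusted p = 0.126) or 3 (-0.56, adjusted p = 0.182) or injured replicate 1 (-0.77, adjusted p = 0.0776) or 2 (-0.75, adjusted p = 0.074).

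At rest Dusp16 was lower in MmSCs than in CD45+ cells, which had 25.6, 36.1 and 24.7 CPM (-0.67 ± 0.27, adjusted p = 0.0414). That call was lost without CD45+ resting replicate 2 (-0.66, adjusted p = 0.0749) or MmSC resting replicate 1 (-0.73, adjusted p = 0.0551). It was higher in MmSCs than in CD31+ cells (0.76 ± 0.29, adjusted p = 0.033), which passed in 1 of 6 fits without 1 library. The losses were without CD31+ resting replicate 2 (0.57) or 3 (0.55) and MmSC resting replicate 1 (0.77), 2 (0.60) or 3 (0.52), with adjusted p from 0.0564 to 0.209.

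Dusp14 was detected mainly in MmSCs and MuSCs. It had 34.6, 31.8 and 64.8 CPM in resting MmSCs, against 1.51, 2.01 and 0 CPM in CD31+ cells (5.14 ± 0.71, adjusted p = 2.44e-06). In resting CD45+ cells it had 3 counts in all, against 629 in MmSCs, a ratio of 157 with an exact counting interval of 53.6 to 765 (adjusted p = 3.9e-07). MuSCs had 23.6, 24.8 and 22.4 CPM at rest, below the MmSC libraries without passing the test (0.89 ± 0.50 for MmSCs over MuSCs, adjusted p = 0.171). Injury left Dusp14 at 37.6, 22.7 and 39.3 CPM in MmSCs (-0.40 ± 0.49, adjusted p = 0.55) and at 42.0, 28.7 and 41.4 CPM in MuSCs (0.67 ± 0.50, adjusted p = 0.316).

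**Figure D3:**
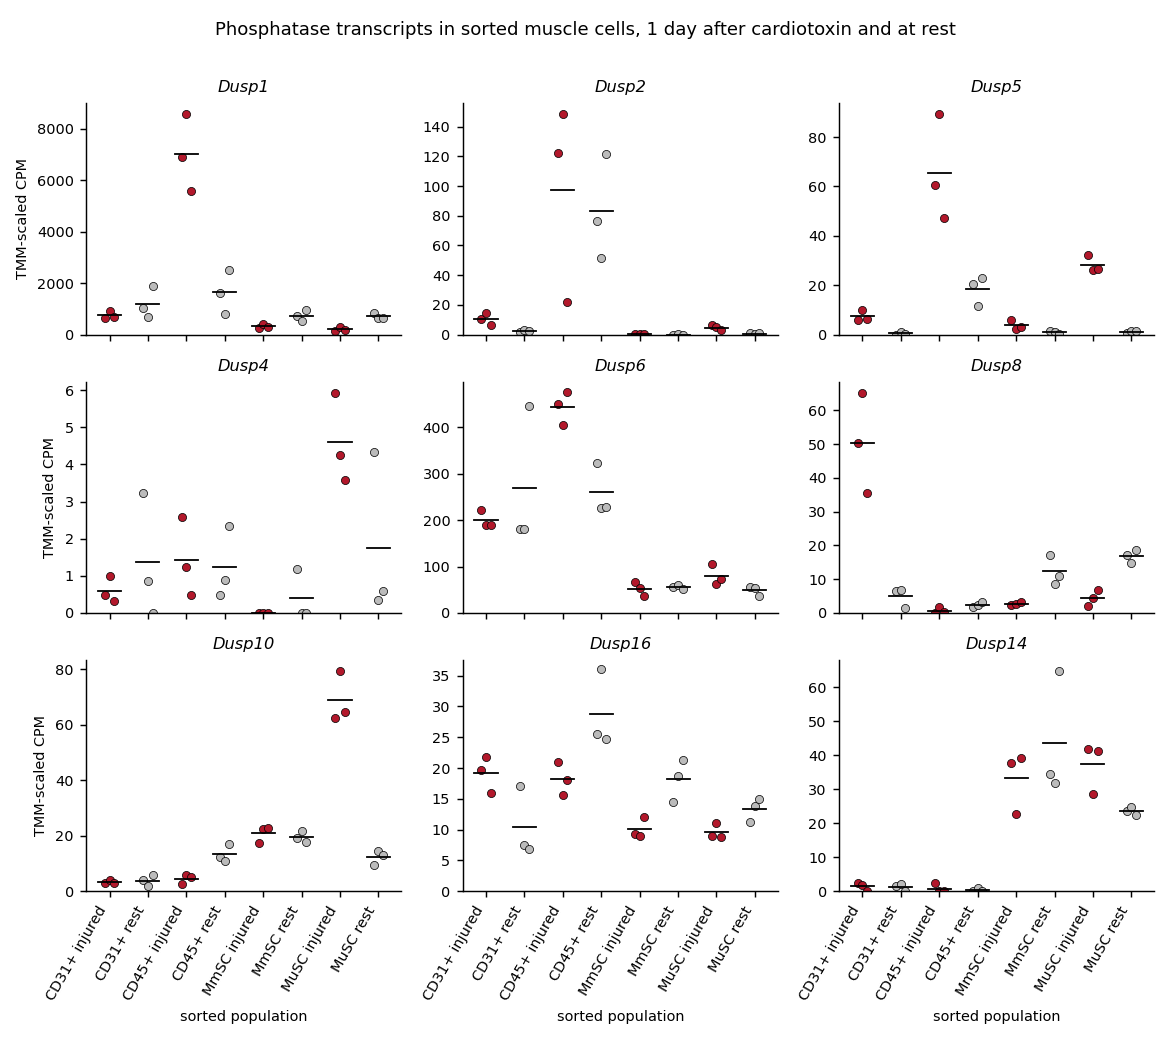
TMM-scaled CPM of the 9 members in CD31+ cells, CD45+ cells, MmSCs and MuSCs, each 1 day after cardiotoxin (red) and at rest (grey), with 1 point per library, the group mean as a bar and linear axes from 0 that differ between genes. Dusp5 is higher after injury in all 4 populations, Dusp1 is higher after injury in CD45+ cells and lower in MmSCs and MuSCs, Dusp8 is higher in CD31+ cells and lower in MmSCs and MuSCs, and Dusp10 is highest in injured MuSCs.

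Over the 24 libraries of sorted cells, Pearson's r on log2(CPM + 1) was 0.79 between Dusp2 and Dusp5, 0.80 between Dusp2 and Dusp6 and -0.91 between Dusp6 and Dusp14. The libraries fall into 4 populations with their own levels, so these are values over populations as much as over libraries. The genes most like Dusp8 were Inhbb (0.92), Eva1c (0.89) and Mest (0.82), and those most like Dusp1 were Neu1 (0.94), Grina (0.93) and Zfp36 (0.93), the last an RNA-decay factor that p38 controls. Those most like Dusp14 were Sgcb (0.98), Tlcd1 (0.96) and Gli3 (0.96).

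In mdx MmSCs members were called at both later ages against 2.5 weeks, and none between the later ages. This experiment has no group of mice with dystrophin, so age and dystrophy cannot be told apart in these comparisons. At 7 weeks 6 of 9 members differed from 2.5 weeks (44.6% of all genes), 4 of them higher and 2 lower, and all 6 calls held without any 1 library. At 12.5 weeks 4 of 9 differed from 2.5 weeks (26.3% of all genes). Between 12.5 and 7 weeks edgeR called 0 of 9 against 5.9% of all genes. There 2775 of 13160 genes had an unadjusted p under 0.05, and DESeq2 called no member either. With 2 libraries at 12.5 weeks this does not show that levels were equal.

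Dusp4 showed the steepest change, with 5.11, 4.31 and 6.35 CPM at 2.5 weeks, 32.3, 30.8 and 43.2 CPM at 7 weeks and 25.6 and 19.2 CPM at 12.5 weeks. The change was 2.75 ± 0.23 at 7 weeks (adjusted p = 5.32e-07) and 2.10 ± 0.26 at 12.5 weeks (adjusted p = 3.89e-05), both against 2.5 weeks. Dusp10 had 114, 135 and 108 CPM at 2.5 weeks, 249.9, 246 and 229 CPM at 7 weeks and 241 and 225 CPM at 12.5 weeks (1.02 ± 0.12, adjusted p = 1.12e-05, and 0.97 ± 0.13, adjusted p = 9.34e-05). In both genes all libraries of the later ages were above all those of 2.5 weeks.

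Dusp6 had 19.4, 6.65 and 10.4 CPM at 2.5 weeks, 26.7, 36.9 and 39.3 CPM at 7 weeks and 25.2 and 32.0 CPM at 12.5 weeks. The changes were 1.49 ± 0.29 (adjusted p = 0.000928) and 1.22 ± 0.33 (adjusted p = 0.0131), and the second was lost without 12.5 week replicate 2 (1.05, adjusted p = 0.103). Dusp5 had 12.4, 12.7 and 18.4 CPM at 2.5 weeks, 32.6, 28.3 and 20.0 CPM at 7 weeks and 22.2 and 17.1 CPM at 12.5 weeks, which passed at 7 weeks (0.90 ± 0.23, adjusted p = 0.00513) and not at 12.5 weeks (0.45 ± 0.26, adjusted p = 0.221).

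Dusp8 and Dusp14 went down. Dusp8 had 37.1, 41.3 and 32.2 CPM at 2.5 weeks, 22.6, 17.6 and 20.0 CPM at 7 weeks and 24.3 and 20.4 CPM at 12.5 weeks (-0.88 ± 0.17, adjusted p = 0.000845, and -0.71 ± 0.20, adjusted p = 0.0147). The second call was lost without 12.5 week replicate 1 (-0.86, adjusted p = 0.0544) or 2 (-0.60, adjusted p = 0.139). Dusp14 had 33.8, 32.9 and 27.9 CPM at 2.5 weeks, 18.6, 14.3 and 17.01 CPM at 7 weeks and 23.5 and 19.2 CPM at 12.5 weeks (-0.92 ± 0.18, adjusted p = 0.000805, and -0.56 ± 0.20, adjusted p = 0.0538). Dusp1 (-0.29 ± 0.15, adjusted p = 0.119), Dusp2 (-0.81 ± 0.49, adjusted p = 0.199) and Dusp16 (-0.18 ± 0.16, adjusted p = 0.391) did not pass at 7 weeks.

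Other gene lists are counted here beside the 44.6% of all genes called between 7 and 2.5 weeks. Of 12 AP-1 and ATF genes 8 were lower at 7 than at 2.5 weeks and 0 were higher. Junb (-1.79 ± 0.13), Atf3 (-2.03 ± 0.15) and Fosl2 (-1.40 ± 0.11) were among the lower. Egr1 was lower by -2.11 ± 0.20 and Myc by -0.93 ± 0.12. Of 19 dissociation genes 2 were higher and 13 lower, and their sum was 12616 to 17147 CPM at 2.5 weeks, 7169 to 8144 CPM at 7 weeks and 9030 to 9095 CPM at 12.5 weeks. Of 13 feedback inhibitors 4 were higher and 6 lower, with Spry1 (-1.89 ± 0.31) among the lower. The satellite cell list, again almost all Vcam1, summed to 14.1 to 36.2 CPM at 2.5 weeks and 448 to 501 CPM at 7 weeks, while its other 7 genes summed to at most 2.30 CPM at either age. The part of the dissociation genes in the changes of the phosphatases was not tested.

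**Figure D4:**
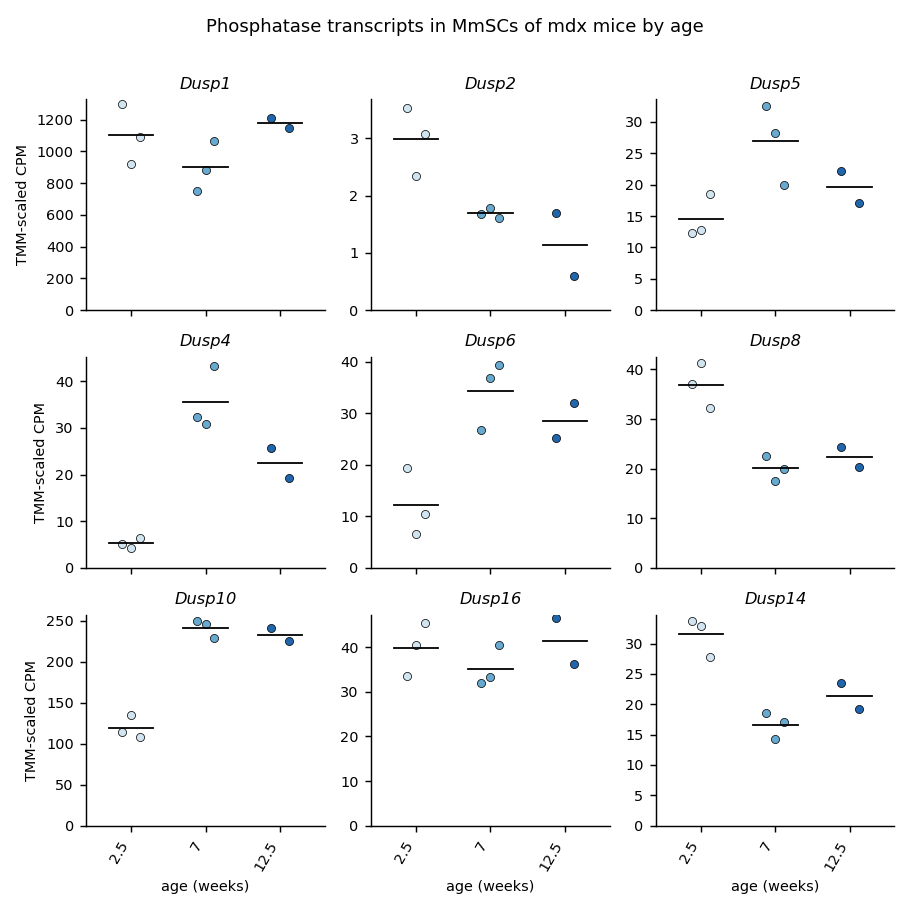
TMM-scaled CPM of the 9 members in MmSCs of mdx mice at 2.5, 7 and 12.5 weeks, with 1 point per library, the group mean as a bar and linear axes from 0 that differ between genes. Dusp4, Dusp6 and Dusp10 are above their 2.5 week libraries at both later ages, and Dusp8, Dusp14 and Dusp2, which was not called, are below theirs.

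In the other 3 experiments the unblocked edgeR test with the filter on low counts called no member. In whole muscle edgeR called 0 of 8 tested members after antibody to Cxcl5 against IgG (0.03% of all genes, with 770 of 13346 genes at an unadjusted p under 0.05). DESeq2 called no member there either, and log2 changes ran from -0.18 (Dusp1) to 1.20 ± 0.63 (Dusp2, adjusted p = 0.849). Whole muscle holds many cell types, so that fewer cells of a type and less RNA per cell cannot be told apart. In Il1b-KO against Il1b-WT MmSCs 0 of 8 tested members were called (1.21% of all genes, with 1433 of 12102 genes at an unadjusted p under 0.05). DESeq2 called no member here, and without the filter on low counts edgeR called Dusp1. Dusp1 had 981, 957 and 935 CPM in Il1b-KO mice, against 856 and 661 CPM in Il1b-WT mice, a separation that did not pass (0.34 ± 0.11, adjusted p = 0.217).

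In Il6RD mice edgeR called 0 of 7 tested members and 0% of all genes, although 1258 of 11975 genes had an unadjusted p under 0.05 and DESeq2 called 119 genes, none of them a member. Libraries with the same replicate number deviated together from their group means here. So did Thy1.1+ replicate 1 with Thy1.1- replicate 2 (r = 0.294) and Thy1.1+ replicate 2 with Thy1.1- replicate 1 (r = 0.279). The pairing of replicates 1 and 2 by number is thus not established. With the replicate number as a block 10.7% of all genes were called, 2 of the 7 members among them. In that fit Dusp1 was lower in Thy1.1+ than in Thy1.1- MmSCs by -0.55 ± 0.11 (adjusted p = 0.00582), with 248, 453 and 629 CPM against 436, 585 and 871 CPM in replicates 1, 2 and 3. Dusp6 was higher by 0.46 ± 0.14 (adjusted p = 0.0455), with 78.5, 90.9 and 89.2 CPM against 48.0, 78.1 and 64.0 CPM. Within each replicate number the Thy1.1+ library was lower for Dusp1 and higher for Dusp6, which rests on the pairing by number. Set against Thy1.1- replicate 1 instead, Thy1.1+ replicate 2 was higher for Dusp1 (453 against 436 CPM). For Dusp6, Thy1.1+ replicate 1 was about level with Thy1.1- replicate 2 (78.5 against 78.1 CPM). The calls with the block were not tested under that other pairing. Dusp5 had 16.0, 19.2 and 27.9 CPM against 12.7, 12.9 and 12.9 CPM and did not pass with the block (0.68 ± 0.23, adjusted p = 0.0773). Il6 was higher by 1.41 ± 0.20 in the same fit.

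Levels of the same gene in MmSCs differed between experiments that were sampled and scaled separately, so the values are set side by side without a test. Dusp10 was at 239 to 298 CPM in MmSCs of Il1b-KO and Il1b-WT mice 1 day after cardiotoxin, and at 17.4 to 22.8 CPM in MmSCs of C57BL/6J mice at the same time after cardiotoxin. Dusp4 was at 12.2 to 20.9 CPM and at 0 CPM in those groups, and Dusp8 at 13.4 to 20.7 CPM and 2.42 to 3.31 CPM. Dusp1 was at 661 to 981 CPM and 266 to 403 CPM, and Dusp16 at 52.0 to 72.1 CPM and 8.98 to 12.1 CPM. Dusp1, Dusp8 and Dusp16 are the genes called lower in injured C57BL/6J MmSCs. In resting C57BL/6J MmSCs they were at 539 to 953, 8.68 to 17.2 and 14.5 to 21.2 CPM. The Il1b experiment has no resting group. Dusp14 was at 19.7 to 34.5 CPM in Il1b-KO and Il1b-WT mice and 22.7 to 39.3 CPM in injured C57BL/6J MmSCs.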

How the data were processed

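RNA-seq libraries of mouse muscle were analysed from 1 table of gene counts. The authors deposited whole-number read counts per gene, and per the submitters' processing notes the tools named are STAR 2.7.3a and featureCounts with the builds mm10 and GRCm38. For annotation version, strand setting and multi-mapping reads, the sources used here give nothing. Column names were matched to sample titles. Separate edgeR 4.0.16 models (R 4.3.3) were fitted to the 6 experiments, with TMM scaling, filterByExpr at a minimum count of 10, 1 coefficient per group of the experiment and the quasi-likelihood test. P-values were adjusted by Benjamini-Hochberg over all genes tested, and a call is an adjusted p under 0.05. In all, 32 comparisons were made, over 11975 to 16374 genes. CPM are TMM-scaled within an experiment. The edgeR script was tested on simulated counts. Alternatives were RLE size factors, no filter, DESeq2 1.42.0, fitting only the groups compared, the replicate number as a block, and leaving out each library. Same-numbered libraries were taken as paired only in Il6RD mice, where their deviations from the group means correlated at 0.391, 0.427 and 0.652. Libraries numbered 1 and 2 also correlated across these 2 groups, at 0.294 and 0.279. Intervals are 95% exact counting intervals and cover counting error only. Gene positions come from GENCODE M21 (GRCm38) and promoters from RefSeq (GRCm38.p6). Members and gene lists were chosen with earlier results of these data known. Named genes are the members, the list genes with the smallest p, and the 3 genes most correlated with each member. The search for correlated genes kept genes with a mean of at least 8 CPM. It left out mitochondrial genes, Xist, Tsix, some Y-linked genes and names of the Gm, Rik and clone type. Members with a mean log2(CPM + 1) under 1 were skipped.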

Additional observations from a re-analysis of the deposited data

Results flagged for a closer look

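Tests of a difference between responses passed in 8 cases, each on the log2 scale. In the cytokine experiment the change after Osm with Il-1b departed from the sum of both single changes by 1.34 for Dusp1 and by -3.92 for Dusp5. In the injury experiment the MmSC response differed from the CD31+ response by -5.48 for Dusp8 and -1.68 for Dusp16. It differed from the CD45+ response by -3.29 for Dusp1 and 1.65 for Dusp10, and from the MuSC response by -2.38 for Dusp10 and -2.67 for Dusp5. Over fits without 1 library, the Dusp5 difference from the MuSC response passed in 1 of 12, and the Dusp1 interaction of Osm and Il-1b in 4 of 8. The other differences passed in every such fit. No group has the 4 libraries that a check for a library far from the others needs.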

How the results depend on the processing

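RLE size factors lost Dusp16 in injured CD31+ cells (0.72, adjusted p = 0.0688) and Dusp6 after Il-1b (0.64, adjusted p = 0.0658). Without the filter on low counts the count was 2 for TNFa, 2 for resting MmSCs against MuSCs and 1 (Dusp1) for Il1b-KO mice, against 0 in each. It lost Dusp5 after Osm with Il-1b (adjusted p = 0.0882) and for the mix at 8 h against 2 h (0.0526), and Dusp16 for the mix at 8 h (0.0531), injured MmSCs (0.229) and resting MmSCs against CD31+ cells (0.127). DESeq2 gave 1 for TNFa and 2 for MmSCs against MuSCs, and lost Dusp16 in injured CD31+ cells (adjusted p = 0.0621), Dusp6 after Il-1b (0.055) and Dusp5 after Osm with Il-1b (0.056). Fitting only the groups compared gave 1 for Il-1b, 1 for TNFa, 0 for Il-1b against TNFa, 3 for resting MmSCs against CD31+ cells and 1 for MmSCs against MuSCs. With the replicate block the count was 2 for Thy1.1+ MmSCs, taken as paired by number. It was 1 for resting MmSCs against MuSCs and 1 for the MmSC minus MuSC injury response. Whether the numbers pair the libraries there is not known from the labels. The block also lost Dusp16 for resting MmSCs against CD45+ cells (adjusted p = 0.0549). Smaller gains in these counts are not listed. No result reversed, and the causes were not tested.

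Leaving out 1 library at a time gave, lowest to highest, 4 to 5 called members for the mix at 2 h, 1 to 2 at 4 h, 1 to 3 at 8 h and 3 to 6 for 8 h against 2 h. The range was 0 to 2 for Il-1b, 0 to 2 for TNFa, 2 to 4 for Osm, 0 to 1 for Il-17A, 2 to 4 for Osm with Il-1b, 0 to 5 for Osm with TNFa and 2 to 3 for Osm with Il-17A. It was 1 to 3 for Il-1b against Osm, 0 to 2 for Il-1b against TNFa, 1 to 4 for Osm with Il-1b against Osm, and 1 to 2 for the interaction. Injury gave 2 to 4 in CD31+ cells, 3 to 5 in CD45+ cells, 1 to 4 in MmSCs and 5 to 6 in MuSCs. Resting MmSCs gave 4 to 6 against CD31+ cells, 6 to 7 against CD45+ cells and 0 to 1 against MuSCs. The differences of injury responses gave 2 to 3 (CD31+), 2 to 2 (CD45+) and 1 to 2 (MuSCs). The mdx ages gave 6 to 7 (7 against 2.5 weeks) and 2 to 5 (12.5 against 2.5 weeks), and Il1b-KO mice 0 to 1. With 2 or 3 libraries a group and few counts for Dusp2, Dusp4 and Dusp5, a change that missed the threshold may not have been detectable at this depth.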

Other observations

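Among the 19 other dual-specificity phosphatases listed, 15 were tested in the injury experiment. After injury 2 were higher and 8 lower in MmSCs (41.8% of all genes called), 3 higher and 7 lower in MuSCs (38.8%), 2 higher and 4 lower in CD45+ cells (34.6%), and 1 higher and 2 lower in CD31+ cells (23.5%). The last 2 counts are near the shares of all genes. Ssh2, which encodes a phosphatase of the actin regulator cofilin, was lower after injury, with log2 changes of -1.53 ± 0.14 in MmSCs, -1.45 ± 0.14 in MuSCs and -1.57 ± 0.13 in CD31+ cells. Dusp18 was higher after injury by 4.21 ± 0.64 in MuSCs, 1.88 ± 0.59 in CD31+ cells and 1.81 ± 0.50 in CD45+ cells. In mdx MmSCs Dusp18 was higher at 7 than at 2.5 weeks by 1.89 ± 0.20 and Ssh2 was lower (-1.15 ± 0.19). Dusp9, an ERK-directed relative of Dusp6, was higher at 7 weeks by 3.42 ± 0.75.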
